A study of Mus musculus with 24 samples.

Results

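Gene expression in CD93-positive B cells sorted from the spleens of C57BL/6 mice was compared between animals labelled as deficient in both Tet2 and Tet3 (DKO) and control animals. The comparison rests on 6 of the 24 samples of the series, 3 control and 3 DKO libraries, chosen by the sample titles and not by any measured value. The labels give cells freshly isolated from spleen in every group. They do not give the alleles, the Cre driver or other means of deletion, the age or sex of the animals, the treatment of the controls, or whether each replicate is another animal. A p-value here therefore reflects library-to-library spread, which may be technical. A further 6 libraries, 3 control and 3 DKO, hold CD93-negative splenic B cells of the same strain and are used only for comparison. The other 12 samples, which are finer CD23 and CD21 fractions of CD93-negative cells, are not used here.

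TET proteins oxidise 5-methylcytosine in DNA, the first step of active and passive loss of DNA methylation, and in B-lineage cells they act at enhancers that lineage transcription factors bind. CD93 is a surface glycoprotein of immature and transitional B cells, the recent arrivals from bone marrow that mature in the spleen into follicular or marginal zone B cells. Plasma cells, the antibody-secreting end stage of the lineage, also carry CD93. A sort on CD93 can therefore hold both early and terminal stages of B cell life, and in a bulk sample a change in the share of one of them and a change in RNA per cell cannot be told apart.

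Values are FPKM, the Cufflinks unit that corrects fragment counts for transcript length and library size, rescaled so that the upper quartile of the tested genes was equal in the 6 libraries. Of 23234 genes, the 11250 that reached 1 FPKM in 3 or more libraries were tested. Of these, 70 reached 1 FPKM in no control library and 56 in no DKO library, so they could be tested only because the groups differed. No p-value is given for the 6 described at length (Prdm1, Chst1, Iigp1, Cdkn2a, Foxp3 and Spon1), and counts of lists that hold 2 or more such members are also given without them. Summed FPKM as deposited was 523898 to 597968 in 5 libraries and 309359 in DKO replicate 3. That library also had the most genes above 0, 21908 against 14976 to 19195 in the others, and its rescaling factor was 1.67 against 0.855 to 0.996. Xist and Y-linked genes marked control replicates 1 and 2 as male and control replicate 3 and all 3 DKO replicates as female, so sex and genotype are partly confounded. Values from the female libraries alone, 1 control against 3 DKO, are given for most gene lists, and in that fit the lone control library is assumed to vary like the DKO libraries.

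Cd93 itself stood at 46.2, 50.7 and 51.2 in the control libraries and 43.6, 38.7 and 46.7 in the DKO libraries (log2 change -0.20, SE 0.087, limma adjusted p = 0.153), so RNA for the sorting marker was present in all 6 libraries. Genes of early B cells were abundant. Vpreb3, which binds immunoglobulin chains in immature B cells, had a mean of 783 ± 88.5 (SD, n = 3) in controls and 646 ± 54.9 (SD, n = 3) in DKO cells. Rag1, the recombinase that joins antigen receptor segments, was at 102, 118 and 118 in the control libraries and 64.8, 71.3 and 71.6 in the DKO libraries, lower in every DKO library, as were 22% of the tested genes (log2 change -0.69, SE 0.082, limma adjusted p = 0.00359). RNA of other cell types was present too. Summed over 13 tested markers, red cell RNA was 58895, 55296 and 13064 in the control libraries and 12391, 14422 and 5798 in the DKO libraries, highest in the 2 male controls, and neutrophil RNA over 13 tested markers was 2179.6, 1725 and 1731 in the control libraries and 1286, 1046 and 835 in the DKO libraries.

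**Figure D1:**
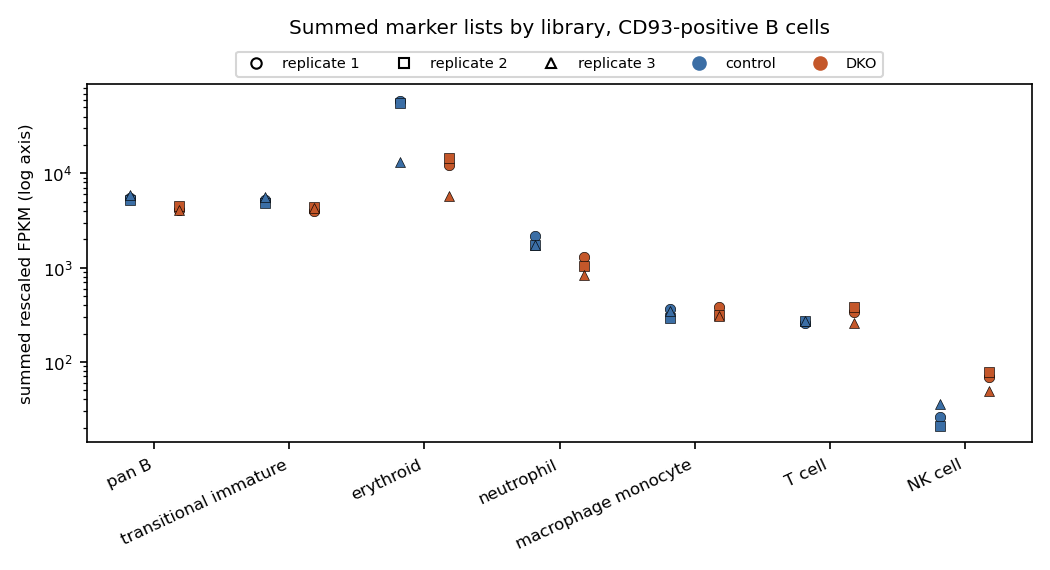
Summed rescaled FPKM (log axis) of marker lists in each CD93-positive library, controls in blue and DKO in orange, with 1 symbol per replicate. Pan-B markers run from 5189 to 5935 in control and from 4066 to 4556 in DKO libraries, red cell markers are highest in control replicates 1 and 2 (58895 and 55296), and NK cell markers run from 20.8 to 35.8 in control and from 48.6 to 77.4 in DKO libraries.

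The deficient cells differed from the controls over a large part of the transcriptome. At a limma adjusted p under 0.05, 1280 of the 11250 tested genes (11.4%) were higher and 1051 (9.34%) were lower in DKO cells. Of the 70 tested genes that reached 1 FPKM in no control library, 66 were called higher. Without these 70 genes, 1214 of 11180 were higher. Increases of at least 1 on the log2 scale numbered 228, and decreases of that size 37. With the authors' scaling these numbered 161 and 141. Without control replicate 3, the only female control, they numbered 257 and 164, and there sex and genotype are fully confounded. Among the 20 largest increases of well-expressed genes were Igj, Fkbp11, Derl3 and Creld2 of antibody secretion, the interferon-inducible GTPases Iigp1, Tgtp1, Tgtp2, Gbp2 and Gvin1, the receptors Cxcr3, Lag3, Tigit and Folr4, the chemokines Ccl3 and Ccl4, and Ly6a, Cdkn2a, Chst1, Serpina3f and Spon1. Spon1, an extracellular matrix protein, was at 0.0837, 0.161 and 0.0171 in the control libraries and 6.24, 5.08 and 5.96 in the DKO libraries, a log2 change of 2.63. Of the 20 largest increases, Iigp1, Cdkn2a, Chst1, Spon1, Ccl3 and Ccl4 reached 1 FPKM in no control library. Surface proteins of mature B cells, Cr2 and Fcer2a, were among the 20 largest decreases. With FPKM as scaled by the authors 188 genes were higher and 173 lower, and the median of all genes moved from -0.011 to -0.22. The female libraries alone gave 87 higher and 13 lower genes, and leaving out control replicate 2 gave 554 and 285.

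**Figure D2:**
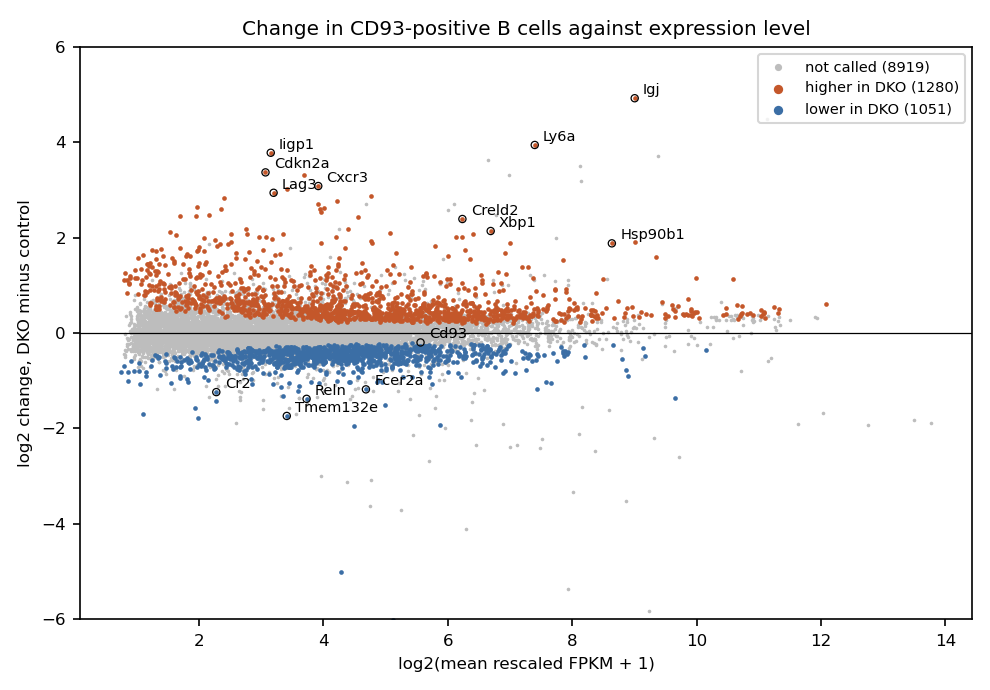
Log2 change (DKO minus control) against log2 of the mean rescaled FPKM plus 1 for 11250 tested genes in CD93-positive cells, with genes called higher (1280) in orange, lower (1051) in blue and others in grey. Igj is both the largest named increase and among the more abundant called genes, and 4 small RNA genes lie below the axis.

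Igj gave the largest change of any named gene. It encodes the joining chain that links IgM or IgA into polymers for secretion. Its level was 33.2, 26.9 and 34.7 in the control libraries and 991, 838 and 1149 in the DKO libraries, a 31.4-fold difference between the means (log2 change 4.93, SE 0.14, limma adjusted p = 4.14e-05). Every DKO library lay more than an order of magnitude above every control library, and the female libraries gave 4.79. Xbp1, the transcription factor that expands the secretory apparatus of plasma cells, rose with it, from 34.5, 33.2 and 43.98 to 177, 146 and 178 (log2 change 2.14, SE 0.13, limma adjusted p = 0.000409). Prdm1, which encodes Blimp-1, the repressor that sets the plasma cell programme, was low in controls, at 0.707, 0.738 and 0.68, and reached 4.87, 3.57 and 4.25 in DKO cells (log2 change 1.61).

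Of 26 tested members of a list of plasma cell genes, 17 were higher and 2 lower, with a median log2 change of 1.14 against -0.011 over all tested genes. Without Prdm1 and Chst1, 15 of 24 were higher. Fkbp11, a prolyl isomerase of the endoplasmic reticulum (ER), went from 1.19, 2.14 and 0.765 to 19.8, 13.96 and 19.98 (log2 change 3.02, SE 0.24, limma adjusted p = 0.000973). Derl3, a component of ER-associated degradation, went from 4.53, 4.47 and 7.87 to 53.3, 34.9 and 52.6 (log2 change 2.87, SE 0.24, limma adjusted p = 0.00122). Chst1, a carbohydrate sulfotransferase, was under 0.5 in each control library and at 9.13, 6.16 and 9.49 in DKO cells (log2 change 2.84). Ell2, an elongation factor that favours the secreted form of immunoglobulin mRNA, rose by 1.40 and Sec11c, a signal peptidase subunit, by 0.91 on the log2 scale. Prg2, an abundant granule protein of eosinophils that plasma cells also express, rose by 2.01, with 39.5, 31.3 and 18.2 in the control libraries and 116, 109 and 128 in the DKO libraries.

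Several defining plasma cell genes did not move this way. Sdc1, which encodes the plasma cell surface marker CD138, stood at 16.2, 16.7 and 16.8 in the control libraries and 19.05, 16.1 and 17.7 in the DKO libraries (log2 change 0.084, SE 0.081, limma adjusted p = 0.496). The lower genes were Glcci1 (-0.46) and Irf4, a transcription factor needed for plasma cells, from 68.9, 68.3 and 74.4 to 60.1, 56.1 and 58.8 (log2 change -0.27, SE 0.063, limma adjusted p = 0.0294). Slamf7, Tnfrsf13b and Cd38 gave log2 changes of -0.22, 0.057 and 0.21 that did not pass the test. Fam46c, a nucleotidyltransferase of plasma cells and red cell precursors, was at 70.6, 82.1 and 11.6 in the control libraries and 46.5, 38.6 and 40.9 in the DKO libraries, with the female control lowest and the male controls highest (limma adjusted p = 0.982). In the female libraries 13 of the 26 genes were called higher and none lower, with a median of 1.56.

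**Figure D3:**
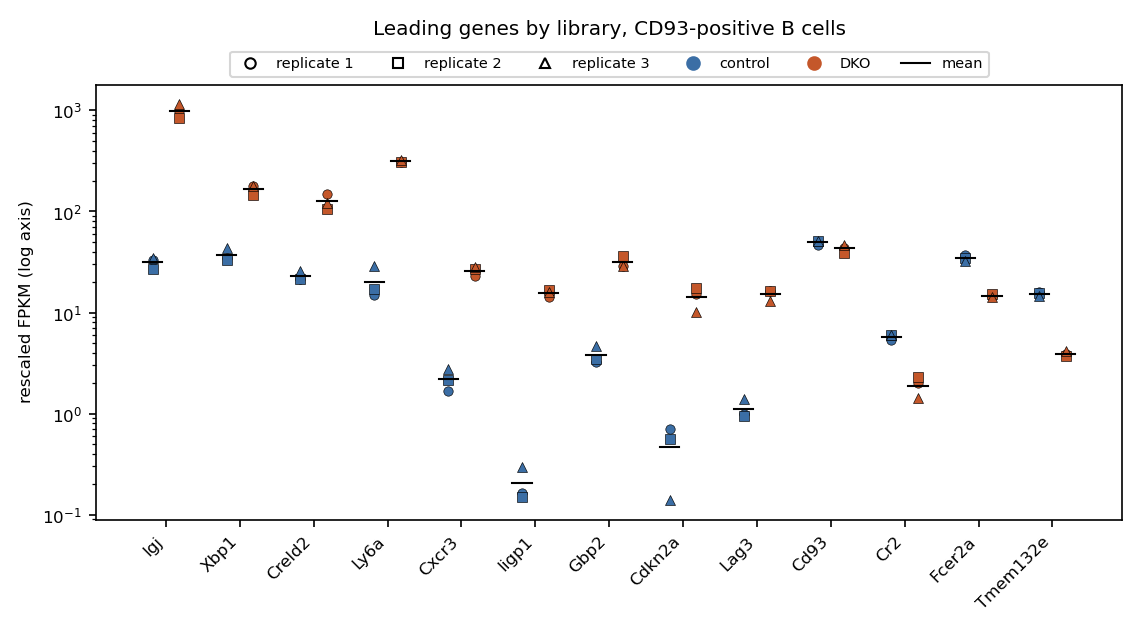
Rescaled FPKM (log axis) of 13 named genes in each of the 6 CD93-positive libraries, controls in blue and DKO in orange, with bars at the group means. Cd93 stays between 38.7 and 51.2, while Igj runs from 26.9 to 34.7 in control and from 838 to 1149 in DKO libraries, and Cr2, Fcer2a and Tmem132e are lower in every DKO library.

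The unfolded protein response adjusts folding capacity to the load of secreted protein through 3 ER sensors, and the IRE1 branch does so by splicing Xbp1 mRNA. Of 30 tested genes of this response, 21 were higher and 1 was lower, with a median of 0.86. The chaperones were the most abundant of them. Hsp90b1, which encodes GRP94, went from 163, 159 and 184 to 656, 533 and 687 (log2 change 1.88, SE 0.11, limma adjusted p = 0.000409). Hspa5, which encodes BiP, went from 112, 113 and 128 to 352, 316 and 365 (log2 change 1.54, SE 0.085, limma adjusted p = 0.000379). Disulfide isomerases rose as well, with log2 changes of 1.89 for Pdia4, 1.28 for Pdia6 and 1.24 for Pdia3. Manf and Sdf2l1, both induced by ER stress, rose by 1.74 and 2.07.

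Other members of the list differed among themselves. Edem1 (1.38), Dnajb9 (0.95) and Dnajc3 (1.22) rose, while Syvn1 (0.056), Derl2 (0.14) and Herpud1 (-0.20), of ER-associated degradation, did not pass the test. Atf4 and Ddit3, which act in the PERK branch, had log2 changes of -0.095 and 0.11 and did not pass the test (limma adjusted p = 0.299 and 0.43). Eif2ak3, the gene of PERK itself, was the member that fell, from 28.3, 31.8 and 27.2 to 23.6, 21.9 and 22.4 (log2 change -0.35, SE 0.079, limma adjusted p = 0.0274). Ern1, the gene of IRE1, gave 0.19 (limma adjusted p = 0.41), and gene-level values do not show splicing. The female libraries called 10 of the 30 genes, each higher, with a median of 0.78.

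Of 46 tested genes of ER translocation, glycosylation and vesicle export, 36 were higher and none was lower, with a median of 0.51. Sec24d, a cargo adaptor of COPII vesicles that carry protein from the ER, changed most, from 2.23, 2.15 and 2.56 to 15.1, 10.2 and 12.5 (log2 change 2.02, SE 0.15, limma adjusted p = 0.000834). Ssr4, a subunit of the translocon-associated complex, rose by 1.39, and Rpn1 and Ddost, subunits of the oligosaccharyltransferase, by 1.26 and 1.23. Lman1, a cargo receptor for glycoproteins, went from 14.9, 13.7 and 15.5 to 41.1, 28.8 and 38.01 (log2 change 1.22, SE 0.14, limma adjusted p = 0.00301). The 10 genes that did not pass included Sec62 (-0.28), Sec63 (-0.23), Tram1 (0.055) and Copa (0.17). With the female libraries alone 6 were called higher and the median was 0.45.

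The XBP1 and ATF6 proteins bind elements with the core TGACGTGG. RefSeq promoter windows (GRCm38.p6, 250 bases before to 50 after the start site) were matched to 8908 of the tested genes. A gene can have several windows and was counted if any of them held the motif. This core, read on both strands, lay in a window of 1.01% of these genes. Counted by single window, the core lay in 0.676% of all 32851 windows of the table. Among 36 members of the ER translocation and export list with a window it lay in 4, or 11.1%, and in none of 26 unfolded protein response genes. The following stretches, printed 5′ to 3′ on the strand of the gene with the core in capitals, are those of the most changed genes that hold it upstream of the start. The Sec24d core begins 26 bases upstream of the start (chr3:123267450-123267495, plus strand) and that of Txndc5, a disulfide isomerase whose level rose by 1.69, begins 138 bases upstream (chr13:38528025-38528072, minus strand). A match describes the sequence and does not show binding.
Sec24d: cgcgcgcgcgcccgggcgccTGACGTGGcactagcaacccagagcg
Txndc5: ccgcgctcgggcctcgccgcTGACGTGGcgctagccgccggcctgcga

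Interferon-inducible GTPases form the second group of large increases. The immunity-related GTPases (Irg) and guanylate-binding proteins (Gbp) are made in response to interferon-gamma and attack vacuoles that hold intracellular pathogens. Of 16 tested, 15 were higher and none lower, with a median of 1.76, and without Iigp1 and Gbp10, 13 of 14 were higher. Iigp1 was close to absent in controls, at 0.166, 0.15 and 0.298, and stood at 14.2, 16.5 and 15.98 in DKO cells (log2 change 3.78). Gbp2 went from 3.23, 3.48 and 4.64 to 28.9, 36.6 and 28.7 (log2 change 2.76, SE 0.15, limma adjusted p = 0.000379). Igtp went from 8.54, 10.2 and 12.3 to 40.3, 46.02 and 40.3 (log2 change 1.94, SE 0.13, limma adjusted p = 0.000641).

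Near-identical copies limit some of these values. Tgtp1 was at 2.101, 0.0008 and 2.98 in the control libraries and 21.1, 25.6 and 19.3 in the DKO libraries and Tgtp2 at 2.28, 2.96 and 3.92 in the control libraries and 24.4, 28.8 and 22.3 in the DKO libraries. The copies share most of their sequence, and control replicate 2 gave Tgtp1 almost nothing while Tgtp2 stayed at 2.28, 2.96 and 3.92 in the controls, so the split between the copies is uncertain. Gvin1, a giant GTPase with several close copies, varied most within the DKO group, at 15.6, 11.4 and 3.998, against 0.891, 1.28 and 1.54 in controls (log2 change 2.18, SE 0.42, limma adjusted p = 0.0173). Gbp9 alone was not called, at 12.7, 16.7 and 15.97 in the control libraries and 16.4, 15.9 and 14.2 in the DKO libraries (log2 change 0.041, SE 0.12, limma adjusted p = 0.829). The female libraries called 8 of the 16, each higher, with a median of 1.69.

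Promoters of these genes hold the motifs known for interferon response. The interferon-stimulated response element was searched as GAAANNGAA and the gamma-activated site as TTCNNNGAA, on both strands. GAAANNGAA lay in a window of 8.96% of the 8908 genes, and TTCNNNGAA in a window of 8.37%. Counted by single window, they lay in 8.56% and 8.3% of all 32851 windows of the table. A window was at hand for 9 of the 16 GTPases, and GAAANNGAA lay in all 9 and TTCNNNGAA in 6. Both motifs were found for 6 of the 9 against 1.13% of the 8908 genes, counted even where they lay in different windows of a gene. Among the 168 genes with a window that rose by at least 1, each motif lay in 27, or 16.1%, and among all 996 higher genes with a window they lay in 10.9% and 10.4%. Genes that fell by at least 1 and had a window numbered 22, of which 0 held GAAANNGAA and 1 held TTCNNNGAA.

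The stretches below come from genes named above and show how the motifs lie. They read 5′ to 3′ on the strand of the gene, with both motifs in capitals on either strand (RefSeq, GRCm38.p6). In Tgtp1 (chr11:48992295-48992354, minus strand), Tgtp2 (chr11:49064254-49064313, minus strand) and Igtp (chr11:58199491-58199550, plus strand) the gamma-activated site comes first and the response element follows after 2 bases. Gbp7, also shown (chr3:142530210-142530312, plus strand), holds 2 gamma-activated sites with 10 bases between them, and its response element lies on the opposite strand nearer the start. In Serpina3f (chr12:104214397-104214451, plus strand) the motifs overlap by 3 bases. Gbp2 (chr3:142620585-142620633, plus strand) holds the response element on the opposite strand, 58 bases upstream of the start. No match says only that these letters are not in the window.
Tgtp1: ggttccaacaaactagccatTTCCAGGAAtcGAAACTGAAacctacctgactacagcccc
Tgtp2: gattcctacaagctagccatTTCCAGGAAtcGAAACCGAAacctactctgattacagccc
Igtp: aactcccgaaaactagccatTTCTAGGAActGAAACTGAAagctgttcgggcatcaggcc
Gbp2: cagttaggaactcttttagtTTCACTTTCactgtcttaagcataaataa
Gbp7: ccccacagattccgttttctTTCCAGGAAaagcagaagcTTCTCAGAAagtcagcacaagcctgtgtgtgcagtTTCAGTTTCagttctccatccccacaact
Serpina3f: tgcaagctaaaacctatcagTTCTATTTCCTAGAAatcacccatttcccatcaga

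MHC class I presentation rose across the whole pathway. All 19 tested genes were higher, with a median of 0.89. H2-K1, a class I heavy chain, went from 586, 579 and 735 to 1423, 1411 and 1357 (log2 change 1.15, SE 0.11, limma adjusted p = 0.00182), and B2m, the light chain, from 902, 829.5 and 1174 to 2030.5, 2193 and 2119.5 (log2 change 1.14, SE 0.14, limma adjusted p = 0.0038). Psmb9, an immunoproteasome subunit, went from 79, 76.6 and 103 to 209.6, 254 and 209 (log2 change 1.38, SE 0.14, limma adjusted p = 0.00205), and Tap1, a subunit of the peptide transporter, rose by 1.05. Nlrc5, the transactivator of class I genes, rose by 1.10. Class Ia, H2-Q and H2-T genes are alike in sequence, so their single values are uncertain. In control replicate 3, the female control, H2-K1, B2m and Psmb9 lay above the 2 male controls, and the female median was 0.72 with 2 genes called.

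For MHC class II presentation no gene was called higher. Of 15 tested genes, 0 were higher and 3 were lower (H2-DMb1, H2-DMb2 and H2-Ob), and the median was -0.035. H2-Ab1 and H2-Eb1, the beta chains, gave 0.24 and 0.28 without passing. H2-Aa stood at 392, 367 and 314 in the control libraries and 370.4, 407 and 302 in the DKO libraries (log2 change 0.0029, SE 0.13, limma adjusted p = 0.989), and Ciita, the class II transactivator, gave -0.25 (limma adjusted p = 0.23).

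Among genes of the type I interferon response, 8 of 35 tested were higher and none was lower, with a median of 0.33. With the authors' scaling 3 were higher and 1 was lower, with a median of 0.11. Zbp1, a sensor of Z-form nucleic acid, went from 10.1, 10.6 and 14.9 to 52.9, 60.6 and 46.7 (log2 change 2.09, SE 0.16, limma adjusted p = 0.000896). Irf7, Ifi47 and Bst2 rose by 0.51, 1.24 and 1.13. The antiviral genes Oas1a, Oas1g and Ifitm3 rose by 1.27, 0.89 and 1.06. Others did not pass the test: Isg15 was at 45.8, 46.6 and 31.5 in the control libraries and 41.6, 42.9 and 36.3 in the DKO libraries (limma adjusted p = 0.948), and Ifit1, Mx1 and Oasl2 gave 0.49, 0.40 and 1.27. Rsad2 ran with the red cell markers, at 92.9, 101 and 21.8 in the control libraries and 22.4, 22.8 and 10.03 in the DKO libraries. The female libraries called 1 of the 35 genes, with a median of 0.26.

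Signalling genes upstream were mostly uncalled. Of 27 tested, 7 were higher and 3 lower, with a median of 0.08 that became -0.15 with the authors' scaling. Irf1, a factor induced by interferon-gamma, went from 47.2, 46.01 and 49.6 to 100.4, 113 and 88.7 (log2 change 1.06, SE 0.095, limma adjusted p = 0.00157). Socs3 and Socs1, feedback inhibitors of JAK kinases, rose by 1.56 and 0.46. Ifngr2, a chain of the interferon-gamma receptor, was lower (log2 change -0.46, SE 0.091, limma adjusted p = 0.0175), and Ifngr1 gave -0.097 (limma adjusted p = 0.631). None of the 27 was called in the female libraries.

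Ly6a, which encodes Sca-1, a glycolipid-anchored protein that interferon induces in lymphocytes, had the second largest increase, from 14.9, 17.2 and 28.7 to 310.5, 309.9 and 324 (log2 change 3.94, SE 0.22, limma adjusted p = 0.000379). Its 3 DKO values lay within 5% of one another. The female control was the highest control, and the female libraries gave 3.41. Of 8 tested Ly6 genes, 4 were higher, all of the Ly6a to Ly6c cluster, and Lynx1 was lower. Ly6c1 went from 11.04, 9.19 and 12.2 to 43.2, 41.4 and 42.5 (log2 change 1.88, SE 0.10, limma adjusted p = 0.000379), and its close copy Ly6c2 rose by 0.76. Of 7 tested serpins, Serpina3f (2.59), Serpina3g (2.18) and Serpinb9 (0.76) were higher. Serpina3g, an inhibitor of lysosomal proteases, stood at 6.61, 6.47 and 6.69 in the control libraries and 33.8, 37.2 and 29.5 in the DKO libraries.

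Cxcr3 is the receptor for interferon-induced chemokines and a target of T-bet. It went from 1.68, 2.14 and 2.79 to 23.01, 27.02 and 27.9 (log2 change 3.08, SE 0.15, limma adjusted p = 0.00031). Tbx21, which encodes T-bet, was low, at 0.579, 1.01 and 1.39 in controls and 3.34, 2.69 and 2.61 in DKO cells (log2 change 0.98, SE 0.19, limma adjusted p = 0.0159). Of 22 tested genes of T-bet-expressing, age-associated B cells, 10 were higher and 2 lower, with a median of 0.63. The lower genes were Zeb2 (-0.50) and Il10ra (-0.44). With the authors' scaling 6 were higher and 0 lower, with a median of 0.41. Zbtb32, a repressor found in activated B cells, rose by 1.82, Plac8 by 1.60 and Itgax, which encodes CD11c, by 0.73. Itgam, which encodes CD11b, stood at 7.81, 6.33 and 6.75 in the control libraries and 7.62, 7.49 and 6.55 in the DKO libraries (log2 change 0.048, SE 0.11, limma adjusted p = 0.781). Without the male controls the median of this list was 0.26 with 2 genes called.

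B-1 cells are innate-like B cells that make natural IgM. Of 20 tested genes of this type, 13 were higher and none lower, with a median of 0.82. Bhlhe41, a transcription factor of B-1a cells, went from 9.05, 8.28 and 9.12 to 26.1, 21.1 and 18.9 (log2 change 1.22, SE 0.12, limma adjusted p = 0.00224). Spn, which encodes CD43, rose by 0.64, Anxa2 by 1.32 and Ptpn22 by 1.31. Cd5, the marker of B-1a cells, stood at 4.91, 7.68 and 7.61 in the control libraries and 11.5, 12.8 and 7.34 in the DKO libraries and did not pass the test (log2 change 0.57, SE 0.23, limma adjusted p = 0.132). Zbp1, Zbtb32 and Ctla4 belong to other lists used here as well. In the female libraries 3 of the 20 were called higher, with a median of 0.74.

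Inhibitory receptors best known from exhausted or regulatory T cells were higher. Of 12 tested, 9 were higher and Btla was lower, with a median of 0.70. Without Ctla4 and Nt5e, which reached 1 FPKM in no control library, 7 of 10 were higher. Lag3, which binds MHC class II, went from 1.001, 0.951 and 1.38 to 16.2, 16.5 and 13.1 (log2 change 2.94, SE 0.14, limma adjusted p = 0.00031). Pdcd1, which encodes PD-1, went from 0.736, 1.90 and 1.03 to 6.26, 7.37 and 7.05 (log2 change 1.86, SE 0.20, limma adjusted p = 0.00275). Tigit was uneven in both groups, at 2.32, 6.37 and 1.74 in the control libraries and 19.6, 15.6 and 45.4 in the DKO libraries (log2 change 2.63, SE 0.49, limma adjusted p = 0.0153), with DKO replicate 3 highest. Ctla4 rose by 1.47 and Nt5e, the CD73 ectoenzyme, by 1.46. Folr4, a receptor of regulatory T cells and oocytes, went from 2.83, 3.63 and 4.29 to 23.5, 31.3 and 21.8 (log2 change 2.53, SE 0.17, limma adjusted p = 0.000641). Foxp3, the regulatory T cell factor, was at 0.573, 0.587 and 0.248 in the control libraries and 3.64, 3.07 and 2.26 in the DKO libraries (log2 change 1.44). The female libraries called 2 of the 12.

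T cell and NK cell RNA moved partly with these genes, and its part in them was not tested. The summed level of 19 T cell markers, of which 18 were tested, was 260.4, 272 and 274 in the control libraries and 339, 385 and 256 in the DKO libraries. Cd3e was at 5.81, 10.9 and 10.5 in the control libraries and 15.3, 19.6 and 9.72 in the DKO libraries (log2 change 0.65, SE 0.30, limma adjusted p = 0.169), Cd3d and Cd3g gave 0.62 and 0.69 without passing the test, and none of the 3 was at 0. Within the list Cd28, Zap70 and Ccl5 were higher and Il7r, which pro-B cells also carry, was lower. Without DKO replicate 3, 8 of the 18 were called higher. The sum of the NK cell markers was 25.7, 20.8 and 35.8 in the control libraries and 69.02, 77.4 and 48.6 in the DKO libraries, and of 8 tested Gzmb, Nkg7, Prf1 and Eomes were higher, or 3 of 7 without Gzmb, which was under 1 FPKM in the controls. Lag3 kept 3.04 and Pdcd1 1.84 without DKO replicate 3. That library had the lowest T cell and NK cell sums of the DKO group, so its removal was no test of that RNA.

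Some chemokines were higher as well. Ccl3 and Ccl4, inflammatory chemokines, were at 0.232, 0 and 0.347 and 0.298, 0.2 and 0.67 in controls and at 5.93, 6.40 and 4.25 and 4.23, 9.03 and 10.1 in DKO cells, with log2 changes of 2.45 and 2.60. Cxcl9 and Cxcl10, the ligands of Cxcr3, rose by 1.30 and 1.26 from levels under 1. Il10, an inhibitory cytokine of regulatory B and T cells, rose by 1.16 to 1.64, 1.27 and 2.17. Of 23 tested cytokine, chemokine and cytokine receptor genes, 7 were higher, of which these 5 reached 1 FPKM in no control library. That leaves 2 of 18, near the share over all tested genes without such members, 1214 of 11180. The 4 lower genes were Il4ra (-0.82), Il21r (-0.42), Il10ra (-0.44) and Tgfb1 (-0.44). None of the 23 was called in the female libraries.

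Against these increases stood a broad, shallow fall of genes of mature B cells. Cr2, which encodes the complement receptor CD21, went from 5.33, 5.98 and 6.06 to 1.99, 2.28 and 1.42 (log2 change -1.24, SE 0.14, limma adjusted p = 0.0034). Fcer2a, which encodes CD23, went from 37.1, 34.8 and 32.1 to 14.6, 15.2 and 14.2 (log2 change -1.18, SE 0.076, limma adjusted p = 0.000518). Of 21 tested genes of mature follicular B cells, 15 were lower and Itgb7 was higher, with a median of -0.52. Bach2, a repressor of plasma cell differentiation, was among them, from 56.3, 65.2 and 57.8 to 38.8, 30.6 and 30.96 (log2 change -0.82, SE 0.11, limma adjusted p = 0.0056). Among the female libraries the median was -0.52, and Fcer2a was called.

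Marginal zone genes fell in part. Of 24 tested, 10 were lower and Fcrl5 and Cd9 were higher, with a median of -0.32. The lower genes included Notch2, the receptor that directs this fate (-0.71), its targets Dtx1 (-0.86) and Hes1 (-0.59), the sphingosine receptor S1pr3 (-0.69) and the cannabinoid receptor Cnr2 (-1.01). Cnr2 went from 22.9, 25.9 and 22.8 to 12.7, 10.9 and 10.5 (log2 change -1.01, SE 0.096, limma adjusted p = 0.00186). No member was called in the female libraries, where the list median was -0.51.

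Genes of the transitional stage were mostly uncalled. Of 29 tested, 7 were lower and 2 higher (Socs3 and Ms4a4c), with a median of -0.25. The lower genes were Bmf, Sox4, Rag1, Tnfrsf13c, Spib, Akap12 and Il7r, at -0.74, -0.58, -0.69, -0.43, -0.54, -0.60 and -0.68. Igll1 and Vpreb1, the surrogate light chain, gave -0.12 and -0.00019 and did not pass the test. Their control values were uneven, with 114, 102 and 169 for Vpreb1. With the female libraries alone the list median was -0.48 and no member was called.

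Transcription factors of the B lineage were lower in 17 of 33 tested cases and higher in 1, Prdm1, with a median of -0.29. Pax5, which maintains B cell identity, went from 193, 198 and 194 to 151, 114 and 128 (log2 change -0.58, SE 0.10, limma adjusted p = 0.0137). Ebf1, which specifies the lineage, went from 102, 106 and 102 to 68.4, 68.3 and 71.8 (log2 change -0.56, SE 0.055, limma adjusted p = 0.00203). Foxo1, Foxp1, Ets1, Spib and Runx1 were lower as well, with log2 changes from -0.52 to -0.67. Irf8, Mef2c, Bcl6 and Bcl11a gave 0.067, -0.17, -0.20 and -0.19 and did not pass. No member was called in the female libraries, where the median was -0.35.

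B cell receptor genes followed the same course. Of 32 tested, 14 were lower and none higher, with a median of -0.25. Cd79a, a signalling chain of the receptor, went from 1270.5, 1195 and 1358 to 948, 1077 and 955 (log2 change -0.36, SE 0.09, limma adjusted p = 0.0344), while its partner Cd79b gave -0.25 without passing the test. Signalling genes among the lower ones were the kinases Syk (-0.43) and Lyn (-0.35) and the paracaspase Malt1 (-0.45), and Btk, Blk and Blnk did not pass. The phosphatase Ptpn6 and the adaptor Dok3, both inhibitory, were lower too (-0.41 and -0.48). The female libraries called 1 of the 32 lower. Over 12 pan-B markers, 7 were lower, and their summed level was 5501, 5189 and 5935 in the control libraries and 4066, 4556 and 4103 in the DKO libraries, so the share of B cell RNA cannot be told apart from its level per cell.

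The counts for these lists depended on the scaling and less on DKO replicate 3. With the authors' scaling, where all genes had a median of -0.22, higher genes numbered 12 of 26 for plasma cell genes, 5 of 30 for the unfolded protein response, 1 of 46 for ER translocation and export, 10 of 16 for the GTPases, 1 of 19 for MHC class I, 6 of 20 for B-1 genes and 5 of 12 for inhibitory receptors. Lower genes numbered 3 of 21 for follicular genes, 2 of 24 for marginal zone genes, 0 of 33 for lineage factors and 2 of 32 for B cell receptor genes. The medians of the lists counted for higher genes stayed positive, the highest being 1.60 for the GTPases. Those of the lists counted for lower genes fell further, to -0.75 for follicular genes. Because this scaling lowered the median of all genes, the negative sign of these medians was no check. Without DKO replicate 3 the same higher counts, in that order, were 17, 21, 33, 14, 19, 14 and 7, and the lower counts 14, 9, 15 and 9.

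**Figure D4:**
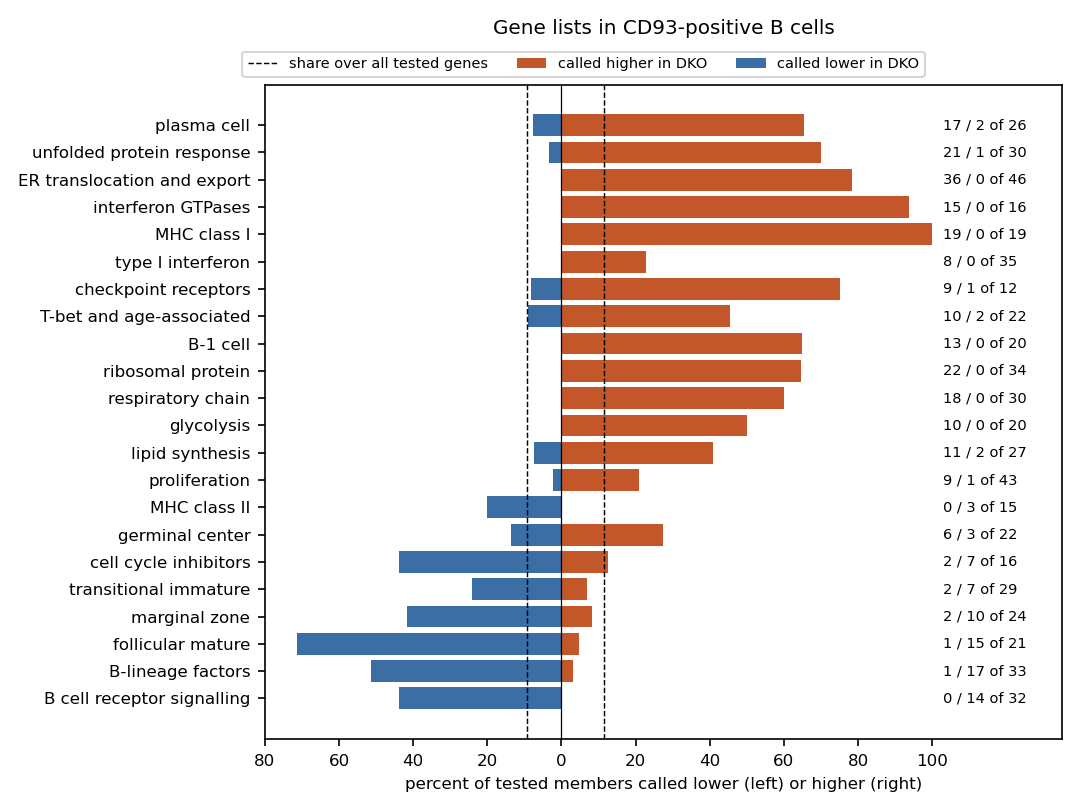
Percent of the tested members of each gene list called higher (orange, right) or lower (blue, left) in DKO cells, with counts of higher and lower members at the right and dashed lines at the shares over all tested genes (11.4% and 9.34%). Secretory, interferon GTPase and MHC class I lists lie to the right, and follicular, B-lineage factor and B cell receptor lists to the left.

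Other large decreases belong to no list. Tmem132e, a transmembrane protein, went from 15.9, 15.7 and 14.5 to 3.86, 3.71 and 4.12 (log2 change -1.74, SE 0.085, limma adjusted p = 0.00031) and gave -1.66 in the female libraries. Rbm24, an RNA-binding protein, went from 5.64, 6.57 and 5.90 to 1.92, 1.17 and 1.87 (log2 change -1.42, SE 0.15, limma adjusted p = 0.0025). Reln, the extracellular protein reelin, went from 16.97, 20.4 and 17.1 to 6.62, 6.72 and 5.71 (log2 change -1.38, SE 0.11, limma adjusted p = 0.000888). Apobec1, a cytidine deaminase that edits RNA, went from 40.3, 38.1 and 42.5 to 18.7, 19.1 and 19.97 (log2 change -1.03, SE 0.069, limma adjusted p = 0.000625), and Atp1b1, a sodium pump subunit, from 252, 255 and 261 to 119.6, 127 and 126 (log2 change -1.03, SE 0.056, limma adjusted p = 0.000379). These 5 genes were at similar levels in the male and female controls.

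A different set of decreases ran with red cell RNA. Ypel4 was at 46.3, 49.7 and 11.1 in the control libraries and 9.16, 7.38 and 4.89 in the DKO libraries (log2 change -1.95, SE 0.55, limma adjusted p = 0.0499) and Ube2o at 57.5, 62.3 and 21.4 in the control libraries and 15.9, 17.01 and 10.9 in the DKO libraries (log2 change -1.51, SE 0.40, limma adjusted p = 0.0425). In each the 2 male controls stood far above the female control, as did the summed red cell markers, and the female libraries gave -0.61 and -0.55, neither called. The part of red cell RNA in these values was not tested. Without DKO replicate 3 the adjusted p of these genes was 0.109 and 0.0954. Of 13 tested red cell markers none was called. Neutrophil granule genes were lower in 6 of 13 tested cases, among them Ngp, from 323, 257 and 238 to 149, 132 and 111 (log2 change -1.05, SE 0.15, limma adjusted p = 0.00625), and S100a9, from 727, 555 and 572 to 417, 340.2 and 254 (log2 change -0.89, SE 0.19, limma adjusted p = 0.0242). None of them was called in the female libraries, where their median was -0.67.

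Of the genes that name the genotype, Tet3 RNA was lower and Tet2 RNA was not called. Tet3 went from 11, 12.96 and 12.1 to 8.56, 6.88 and 6.41 (log2 change -0.66, SE 0.12, limma adjusted p = 0.015). Tet2 stood at 2.88, 3.45 and 2.65 in the control libraries and 3.07, 2.06 and 3.01 in the DKO libraries (log2 change -0.11, SE 0.16, limma adjusted p = 0.638), and Tet1 was under the filter, at 0.746, 1.02 and 0.756 in the control libraries and 0.197, 0.486 and 0.94 in the DKO libraries. A value for a whole gene includes exons outside any deleted part, so it does not check the genotype labels. Among 24 tested genes of DNA methylation and its readers, 2 were higher and 7 lower, with a median of -0.088. The lower count was 1 with the authors' scaling, 3 without DKO replicate 3 and 0 in the female libraries. Dnmt1, the maintenance methyltransferase, was at 55.5, 58.1 and 58.3 in the control libraries and 58.9, 55.6 and 59.9 in the DKO libraries (log2 change 0.02, SE 0.06, limma adjusted p = 0.836), and Cxxc5, a CpG-binding protein, went from 57.6, 58.4 and 63.9 to 43.6, 41.2 and 37.8 (log2 change -0.54, SE 0.077, limma adjusted p = 0.0067).

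Cdkn2a, which encodes the cell cycle inhibitors p16 and p19Arf, had a log2 change over 1, as no other gene of the list of cell cycle inhibitors did. It was at 0.702, 0.566 and 0.14 in controls and 15.2, 17.5 and 10.2 in DKO cells (log2 change 3.37), and gene-level values do not separate its products. Of 16 tested inhibitors and quiescence genes, 7 were lower, among them Cdkn1b (-0.56), Btg1 (-0.42) and Pdcd4 (-0.66), and Ccng1 was also higher. None of the 16 was called lower with the authors' scaling or in the female libraries. Of 43 proliferation genes, 9 were higher and E2f2 was lower, with a median of 0.16 that became -0.072 with the authors' scaling, where the median of all genes was -0.22. Mki67 was at 77.6, 92.4 and 59.9 in the control libraries and 65.4, 54.5 and 60.4 in the DKO libraries (log2 change -0.33, SE 0.16, limma adjusted p = 0.186) and Top2a gave 0.095. The higher genes included the replication helicase subunits Mcm2 to Mcm6, at 0.27 to 0.45, and without DKO replicate 3 the counts were 3 higher and 2 lower, and in the female libraries none was called.

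Of 16 tested survival and death genes of the BCL2 family, 6 were higher and 2 lower, against 11.4% and 9.34% of all tested genes. The lower count was near that share. The Bcl2a1 copies were higher, with 3.97, 6.11 and 7.06 and 23.3, 25.8 and 20.9 for Bcl2a1b (log2 change 1.88, SE 0.19, limma adjusted p = 0.00211), although the copies cannot be separated with certainty. Bcl2l11, which encodes the pro-apoptotic BIM, rose by 0.52, and Bmf, another pro-apoptotic member, fell, at -0.74. Bcl2l1, which encodes BCL-XL, was at 91.98, 92.99 and 58.4 in the control libraries and 45.7, 47.1 and 41.4 in the DKO libraries (log2 change -0.82, SE 0.18, limma adjusted p = 0.0254), with the female control between the male controls and the DKO libraries. With the authors' scaling 3 of the 16 were higher and 0 lower, and the list median in the female libraries was 0.23.

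Metabolic and translation genes rose by small amounts in large numbers. Of 34 ribosomal protein genes 22 were higher, of 30 respiratory chain genes 18, of 25 ribosome biogenesis genes 13, of 20 glycolysis genes 10 and of 17 heat shock genes 10, and none in these lists was lower. Their medians were 0.37, 0.32, 0.33, 0.34 and 0.42. With the authors' scaling the medians were 0.12, 0.076, 0.089, 0.091 and 0.18, against -0.22 for all genes, and no member was called there or in the female libraries. Gapdh, a glycolytic enzyme, went from 337, 314 and 337 to 522, 519.9 and 529.8 (log2 change 0.67, SE 0.062, limma adjusted p = 0.0017). Myc, which drives ribosome biogenesis, rose by 0.45.

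Of 27 lipid synthesis genes 11 were higher, all of them in cholesterol supply or its feedback control, and the desaturases Scd1 and Scd2 were lower. Other genes of cholesterol synthesis, among them Hmgcs1 (0.14), Mvd (0.24), Dhcr7 (0.14) and Lss (0.38), did not pass, and the authors' scaling left 1 of the 27 called. Fdps, farnesyl diphosphate synthase, went from 16.6, 12.7 and 15.9 to 31.5, 30.2 and 34.8 (log2 change 1.05, SE 0.11, limma adjusted p = 0.00286). Sqle, Cyp51 and Insig1 rose by 1.07, 1.04 and 1.08. Scd1, a fatty acid desaturase, went from 88.9, 91.3 and 91.9 to 53.1, 52.6 and 45.4 (log2 change -0.84, SE 0.076, limma adjusted p = 0.00158). In the female libraries the list median was 0.36 and no member was called.

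The CD93-negative libraries, all male by the same genes, were scaled and tested in their own table, so the difference between the populations was not tested. There 1869 of 10960 tested genes were higher (17.1%) and 2609 lower (23.8%). Genes that reached 1 FPKM in the CD93-negative libraries of only 1 group were not counted, so the CD93-negative counts below include them. With the authors' scaling the counts became 2045 and 306, and with a common median 2244 and 1978. Of 10446 genes tested in both populations, 766 were higher in both, 63.7% of the genes higher in CD93-positive cells and 42.5% of those higher in CD93-negative cells. A further 684 were lower in both, 68.6% and 27.1% of the respective lists, and 43 were called in opposite directions.

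Igj, Iigp1, Ly6a and Cxcr3 were higher in both, with 4.43, 4.87, 2.19 and 2.25 in CD93-negative cells. Plasma cell genes were called higher in 17 of 26 cases in CD93-positive and 21 of 26 in CD93-negative cells, at medians of 1.14 and 1.01. Single secretory genes differed more. Fkbp11 changed by 3.02 there and by 0.71 in CD93-negative cells, Pdia4 by 1.89 and 0.18, and Derl3 by 2.87 and 1.02. The unfolded protein response median was 0.86 and 0.37. Type I interferon genes went the other way, with 8 of 35 called higher in CD93-positive and 32 of 35 in CD93-negative cells, at medians of 0.33 and 0.79. Proliferation genes were called higher in 9 of 43 cases in CD93-positive and 39 of 43 in CD93-negative cells, at medians of 0.16 and 1.24. For Mki67 the values were -0.33 and 2.08.

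**Figure D5:**
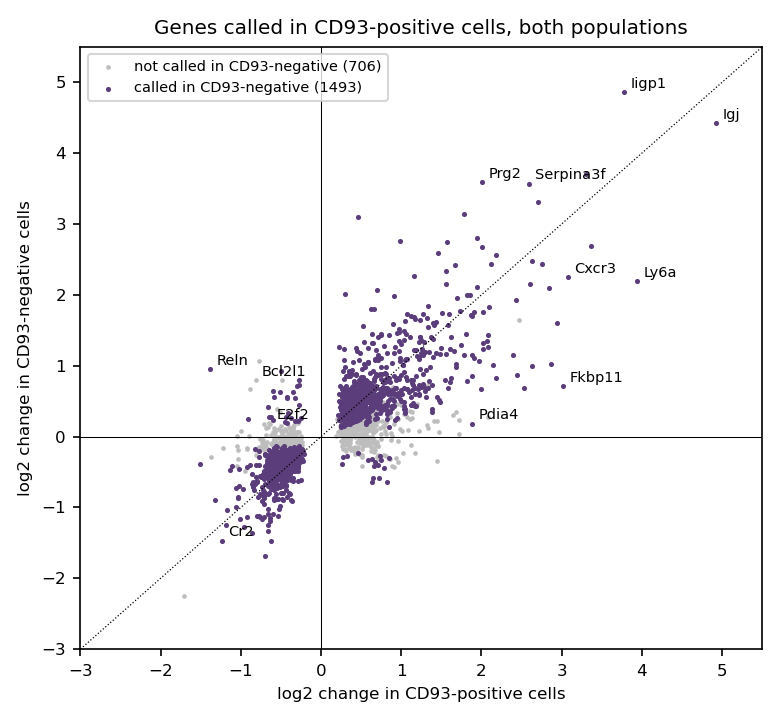
Log2 change in CD93-negative cells against log2 change in CD93-positive cells for 2199 genes called in CD93-positive and tested in both populations, in purple where also called in CD93-negative cells (1493) and in grey otherwise (706). Most points share a sign, Fkbp11 and Pdia4 lie well below the dotted line of equal change, Reln and Bcl2l1 lie in the upper left, and 3 genes lie outside the axes.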

How the data were processed

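Strand-specific RNA-seq libraries were made from total RNA of sorted splenic B cells, per the labels' protocols. The authors deposited FPKM, 1 column per library. Per the submitters' processing notes the tools were Cufflinks 2.1.1, TopHat2 2.0.8 and Bowtie2 2.1.0, on build mm9. The annotation and the handling of multi-mapped reads are not given in the sources used here. FPKM keeps no counts, so depth is unknown and no interval or floor is given. A further 6 columns repeated the CD93-positive block, with 0 differing values, and were not used. In the deposited files 25 gene names had become dates.

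Libraries were rescaled to the geometric mean of their upper quartiles and tested on log2(FPKM + 1) with limma 3.58.1 in R 4.3.3 (lmFit, eBayes with trend), two-sided, with Benjamini-Hochberg adjustment over all genes tested and a threshold of 0.05. Log2 changes on this scale understate those of genes near 1 FPKM. Gene lists were described by counts and medians, without a test. The method was checked on simulated data.

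The members and the 48 lists were chosen with earlier results of these data known. Named genes were the Tet genes, Igj, Xbp1, Ly6a, Cxcr3 and Cd93, the 20 genes that rose most and the 20 that fell most among those whose libraries did not overlap and whose mean reached 5 FPKM in either group (predicted, clone, small RNA and receptor segment names left out), up to 5 called members per list, and for marker lists the 3 most abundant. Other genes named were chosen after their values were seen. Promoter windows came from RefSeq for GRCm38.p6, matched by symbol, and no coordinates were converted. Other scalings, pseudocounts, filters, variance settings, a replicate block, each library left out and the female libraries alone were tried, and sex as a covariate was added after seeing the data. Some genes that meet the rule for named genes are not reported here.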

Additional observations from a re-analysis of the deposited data

Results flagged for a closer look

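Some genes that every DKO library moved one way in CD93-positive cells and the opposite way in CD93-negative cells are described here. They are not a full list, and 43 genes were called in opposite directions. The difference between the populations was not tested, because the tables were scaled separately. Reln, the extracellular protein reelin, changed by -1.38 in CD93-positive cells and by 0.95 in CD93-negative cells, where its values were 0.457, 0.252 and 0.448 in control and 1.76, 1.45 and 1.82 in DKO libraries. Reln reached 1 FPKM in no CD93-negative control library, so it could be tested there only because the groups differed. Bcl2l1, which encodes BCL-XL, changed by -0.82 and 0.80 (limma adjusted p = 0.0789 in CD93-negative cells). E2f2, a cell cycle transcription factor, changed by -0.63 and 0.18 (limma adjusted p = 0.0623 in CD93-negative cells). Hbb-b2, an adult beta globin with a near-identical copy, changed by -1.92 and 2.89. Its limma adjusted p was 0.0719 in CD93-positive and 0.0714 in CD93-negative cells, so it was called in neither. Bcl2l1 and E2f2 were not called in CD93-negative cells. Bcl2l1 and Hbb-b2 were highest in the 2 male CD93-positive controls, which also held the most red cell RNA, and the part of that RNA in these values was not tested. In the female libraries alone the changes were -1.31 for Reln, -0.38 for Bcl2l1, -0.51 for E2f2 and -0.63 for Hbb-b2.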

How the results depend on the processing

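Counts of called genes in CD93-positive cells depended on the setting. Higher and lower genes numbered 188 and 173 with the authors' scaling, where 16 genes of the rescaled comparison changed sign, and 740 and 347 without a filter. The female libraries alone gave 87 and 13, and sex as a covariate, a fit added after seeing the data, gave 398 and 172. Leaving out 1 library gave 554 to 1135 higher and 285 to 966 lower genes, lowest without control replicate 2. The highest counts came without control replicate 3, the only female control, where sex and genotype are fully confounded. The other removals that moved a count over 1.5 times were control replicate 1 (571 and 381), DKO replicate 2 (660 and 489), DKO replicate 1 (776 higher) and DKO replicate 3 (674 lower). With the replicate block the counts were 541 and 357, but the deviations of same-numbered libraries correlated at 0.168, -0.093 and -0.113, so the numbers gave no sign of pairing.

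In CD93-negative cells the lower genes numbered 306 with the authors' scaling and 1592 without a filter. Calls shared in direction by both populations, 1450 in the rescaled comparison, fell to 131 with the authors' scaling, 701 without a filter and 560 with the replicate block, and ranged from 563 to 1093 when 1 library was left out. The cause of these changes was not tested. Quantile and median scaling, both pseudocounts, the stricter filter and the other variance settings left the counts of higher and lower CD93-positive genes within 1.5 times. Changes of at least 1, 228 and 37, became 92 and 13 with a pseudocount of 5, 130 higher with the stricter filter, 60 lower with a pseudocount of 0.1 and 66 lower with library weights. Of 212 genes followed singly, 63 stayed on their side of the threshold in the female libraries, 98 with the authors' scaling, 166 with the replicate block and 193 without DKO replicate 3. Depth is unknown for FPKM, so calls near the filter cannot be weighed by counts.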

Other observations

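Called genes lay side by side in 11 runs of at least 4 neighbouring tested genes, 10 of them higher and 1 lower in DKO cells. How many such runs the shares of called genes would give by themselves was not worked out. The longest were 2 runs of 7 genes on chromosome 17, H2-D1 with H2-Q genes and H2-T23 with H2-T genes, both of MHC class I. Psmb9, Tap1, Psmb8 and Tap2 formed a run on the same chromosome. Others were Gbp5, Gbp7, Gbp3 and Gbp2 on chromosome 3, Ly6i, Ly6a, Ly6c1 and Ly6c2 on chromosome 15, and Gvin1 with 4 predicted relatives on chromosome 7. Havcr2, Timd2, Havcr1 and Gnb2l1 on chromosome 11 rose by 0.77, 1.34, 0.59 and 0.32. Single values of close copies within the H2, Gbp, Ly6 and Gvin1 runs are uncertain. The run of lower genes was Arid2, Scaf11, Slc38a1 and Slc38a2 on chromosome 15, the last pair being amino acid transporters of one family.

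Of 15 tested genes of the BAFF and CD40 receptor family list, 5 were higher and 4 lower, against 11.4% and 9.34% of all tested genes. With the authors' scaling these counts were 3 and 0. Tnfrsf4 (OX40) and Tnfrsf9 (4-1BB), costimulatory receptors of activated lymphocytes, rose by 1.73 and 1.17. Tnfrsf9 reached 1 FPKM in no control library, and without it 4 of 14 were higher. Tnfrsf13c, the BAFF receptor that keeps mature B cells alive, and Cd40 changed by -0.43 and -0.43. Of 28 tested genes of the toll-like receptor pathway, 2 were higher and 4 lower, against 11.4% and 9.34% of all tested genes. Tlr7, which senses RNA, went from 1.46, 1.90 and 2.67 to 5.02, 6.15 and 6.49 (log2 change 1.21, SE 0.18, limma adjusted p = 0.00735). Tlr9, which senses DNA, went from 28.99, 32.9 and 38.5 to 29.4, 23.4 and 20.3 without passing the test (log2 change -0.45, SE 0.16, limma adjusted p = 0.087). Tlr1, Tlr2, Tlr4, Tlr6 and Tlr12 did not pass either. Cd86, a ligand of Cd28 and Ctla4, rose by 0.66 and Icosl, the ligand of Icos, fell, at -1.07. Cxcr4, which holds cells in bone marrow niches, went from 187, 181 and 181 to 126, 130.1 and 123 (log2 change -0.53, SE 0.055, limma adjusted p = 0.00239), while the integrins Itgb1 and Itgb7 rose by 0.80 and 0.85. Dusp5, a phosphatase induced by ERK signalling, fell from 29.03, 30.4 and 30.02 to 17.2, 14.5 and 14.1 (log2 change -0.93, SE 0.088, limma adjusted p = 0.00186). Germinal centre genes were mixed, with 6 of 22 tested higher and 3 lower. Mef2b and Batf were higher by 1.69 and 1.26. Il4ra, Pax5 and Il21r were the lower genes, at -0.82, -0.58 and -0.42, and Bcl6 at -0.20 was not called.

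The T-box core TCACACCT lay in a promoter window of 1.04% of the tested genes that had one. Among those that rose by at least 1 this held for 7 of 168, or 4.17%. Counted by single window, the core lay in 1.28% of all windows of the table. Over all higher genes it lay in 1.1% and over lower genes in 1.42%.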
